A study of Mus musculus with 2 samples.

Results

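The miR-130/miR-301 family of the mouse was followed in the newborn neural tube through its genes Mir130a, Mir130b, Mir301 and Mir301b. These 4 genes, chosen by symbol and matched to the tables through their Ensembl identifiers, make up 4 of the 1973 microRNA (miRNA) genes measured. All 4 were detected, meaning at least 10 counts in each library, as were 352 of the 1973 genes. The study profiled RNA shorter than 30 bases by small RNA sequencing, in 1 group of 2 libraries with no treatment or mutation. Each library came from the single neural tube of 1 pup (pup 1 and pup 2, strain B6NCrl, postnatal day 0), both born to 1 dam, and no sex is recorded. There was no second condition, so the values describe the level of each gene and the difference between the 2 pups. Means are given with the SD of the littermates (n = 2).

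A miRNA is cut from a hairpin precursor, and its bases 2 to 8, the seed, pair with target messenger RNAs and lower their output. Genes whose mature miRNAs share a seed are grouped as a family because they can pair with many of the same targets. The miR-130/miR-301 family is best known from blood vessels, lung and fat tissue: it represses Pparg, the regulator of fat cell formation, and in endothelium miR-130a represses the homeobox genes Meox2 and Hoxa5.

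The mature miRNAs of the 3′ arms carry the sequence that defines the family and are shown first, from RefSeq (GRCm38.p6), 5′ to 3′, with the seed in capitals.
mmu-miR-130a-3p: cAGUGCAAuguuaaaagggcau
mmu-miR-130b-3p: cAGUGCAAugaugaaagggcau
mmu-miR-301a-3p: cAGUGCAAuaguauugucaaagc
These 3 miRNAs share the seed AGUGCAA. Counted from 1 at the 5′ end, miR-130a-3p and miR-130b-3p differed at 2 of 22 bases (U11A and A13G). The miR-301a-3p sequence was identical to both over its first 9 bases and differed from miR-130a-3p at 10 of the 22 bases compared, the first being G10A. The sequences fall into a miR-130 type and a miR-301 type behind 1 common seed.

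The mature miR-301b-3p had no entry in the table used. Its precursor is shown with the same 7 letters in capitals, beside that of Mir130b, because both come from 1 short stretch of chromosome 16.
Mir130b precursor: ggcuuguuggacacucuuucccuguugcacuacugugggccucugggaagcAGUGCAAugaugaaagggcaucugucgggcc
Mir301b precursor: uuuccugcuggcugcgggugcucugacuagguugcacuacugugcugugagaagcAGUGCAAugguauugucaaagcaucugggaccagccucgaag
Each of the 4 precursors holds AGUGCAA at 1 place, at bases 52 to 58 of the Mir130b precursor and 56 to 62 of the Mir301b precursor.

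The 5′ arms do not carry the family seed, and are shown with their own bases 2 to 8 in capitals because the counts pool both arms of a precursor.
mmu-miR-130a-5p: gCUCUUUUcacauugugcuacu
mmu-miR-130b-5p: aCUCUUUCccuguugcacuacu
mmu-miR-301a-5p: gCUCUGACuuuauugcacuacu
mmu-miR-301b-5p: gCUCUGACuagguugcacuacu
The 5′ arms of Mir301 and Mir301b share 1 seed, CUCUGAC, whereas those of Mir130a and Mir130b have a seed each. A count of these genes is a count of either arm, so the share of reads that bear AGUGCAA was not measured.

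The members lie at 3 places in the genome (mm10, positions from GENCODE M21). Mir130a lies on chromosome 2 (84741115 to 84741178, minus strand) within no other annotated gene. The nearest annotated gene on its strand is Gm19426, 990 bases away. Mir301, which makes miR-301a, lies in Ska2, within an intron and on its strand (chromosome 11, 87113004 to 87113089, plus strand); Ska2 encodes a protein of the spindle and kinetochore. Mir130b (17124061 to 17124142) and Mir301b (17124400 to 17124496) lie on the minus strand of chromosome 16 with 257 bases between them, both in an intron of the protein-coding gene 2610318N02Rik on the same strand. No other miRNA gene lay within 10 kb of a member.

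Counts in these tables hold only reads placed at 1 position, so stretches shared between genes bear on every level. Of the 2201 other GENCODE miRNA genes, none shared a stretch of 18 bases or more with any of the 4 precursors. The longest shared stretches were 17 bases between Mir130a and Mir6389, 16 between Mir130b and Mir6368 and 16 between Mir301 and Mir301b. None of the 7 mature sequences of the members that were listed occurred on either strand of any other gene among 141767 annotated transcripts. Only exact runs were searched, so a stretch broken by a differing base counts as not shared. The mature miR-301b-3p, which was not listed, was not searched, and neither was genome sequence outside annotated transcripts. How many reads of the members were placed at a wrong gene or left uncounted cannot be read from this search.

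The 2 libraries totalled 3216453 (pup 1) and 3660693 (pup 2) own-strand miRNA counts, or 50.6% and 50.8% of all reads. A further 35.7% and 35.4% of the reads fitted several places and were counted to no gene. Levels are given as CPM, the own-strand counts per 1000000 own-strand miRNA counts of the library, so that 1 count is worth 0.311 CPM and 0.273 CPM, respectively. Neuronal markers held 2.29% and 2.70% of the counts with 9 of 11 genes detected. Most of these counts were those of Mir137 (48332 of 73713 and 62690 of 98794), whereas Mir124a-1 had 20 and 50. Endothelial Mir126a held 2.78% and 2.60%, and mesenchyme and vascular muscle markers 1.07% and 1.14%. All these shares hold for uniquely placed reads. Sensory neuron markers held 0.323% and 0.539%, oligodendrocyte markers 0.185% and 0.222%, and blood markers, without the unmeasured Mir142, 0.0490% and 0.0575%. Markers of skeletal muscle and hepatocytes held at most 0.0105% each, with Mir1a-1 at 0 in both pups and Mir1a-2 unmeasured; the 0 holds for uniquely placed reads only.

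Mir130a, reported as a promoter of blood vessel growth, was the leading member by a wide margin. It had 49327 counts in pup 1 and 54432 in pup 2, or 15336 CPM and 14869 CPM, a mean of 15103 CPM ± 330 (SD, n = 2). In uniquely placed reads this placed Mir130a 12th of all miRNA genes by mean CPM. It stood above 340 of the 352 detected genes (96.6%) and 75.3-fold above their median of 200.5 CPM. Genes whose reads fit several places can rank too low in such counts. The exact 95% Poisson interval was 15201 to 15472 CPM in pup 1 and 14745 to 14995 CPM in pup 2; such intervals cover counting error only, since no molecular identifiers were stated.

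Mir130b and Mir301 stood about an order of magnitude lower. Mir130b, whose miRNA is reported to repress Pparg as miR-130a does, had 6184 and 6120 counts, or 1923 CPM and 1672 CPM, a mean of 1797 CPM ± 177 (SD, n = 2) at rank 70. Mir301, the gene of miR-301a, had 4506 and 5965 counts, or 1401 CPM and 1629 CPM, a mean of 1515 CPM ± 162 at rank 81. The 2 genes were closer in pup 2, where their ranks were 76 and 78, against 67 and 84 in pup 1.

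Mir301b, the neighbour of Mir130b, was the rarest member. It had 199 counts in pup 1 and 230 in pup 2, or 61.9 CPM and 62.8 CPM, a mean of 62.3 CPM ± 0.68 (SD, n = 2) at rank 240. Its exact 95% Poisson intervals were wide, from 53.6 to 71.1 CPM in pup 1 and from 55.0 to 71.5 CPM in pup 2. The small SD over the pups is below this counting error. With 112 of the 352 detected genes below it (31.8%), Mir301b was the only member under their median.

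**Figure D1:**
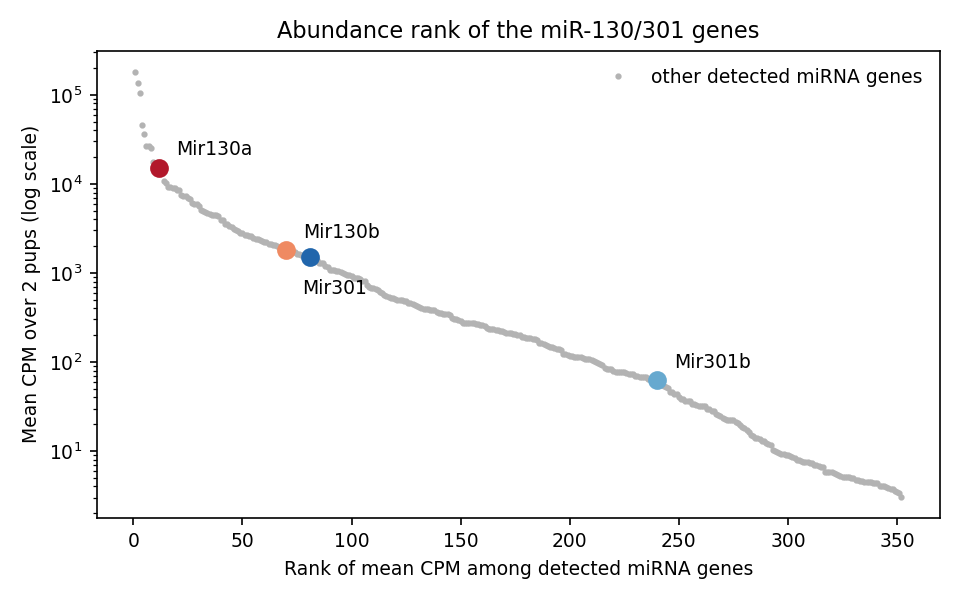
Mean CPM over both pups (log scale) against rank for the 352 detected miRNA genes, with grey points for other genes and coloured points for the 4 members. Mir130a sits at rank 12, Mir130b and Mir301 close together at ranks 70 and 81, and Mir301b at rank 240.

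Levels of the members were compared pair by pair. The counts are reads of mature miRNAs of nearly equal length (22 or 23 bases for the listed ones), so they were not divided by length. A pair was taken to differ where its mean log2(CPM + 1) differed by more than the 95% limit of the SD between pups, pooled over genes of like abundance. Unequal capture of different sequences, if alike in both libraries, would not show in this SD. Of the 6 pairs, 5 differed. Mir130a stood 8.42-fold above Mir130b (limits 6.73 to 10.5), 9.99-fold above Mir301 (7.99 to 12.5) and 238-fold above Mir301b (181 to 314). Mir130b and Mir301 did not differ beyond this spread: the ratio was 1.19-fold with limits of 0.949 to 1.48, and it was 1.37 in pup 1 and 1.03 in pup 2.

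The neighbours on chromosome 16 had very different counts. Mir130b stood 28.3-fold above Mir301b (limits 21.5 to 37.3), at 31.1-fold in pup 1 and 26.6-fold in pup 2. Mir301 is on another chromosome, but its 5′ arm is identical to that of Mir301b at 19 of 22 bases. Their precursors also share a run of 16 bases, most of it within miR-301a-3p. The Mir301b precursor holds the whole sequence of miR-301a-3p but for g in place of the a that follows AGUGCAAu. Mir301 stood 23.9-fold above Mir301b (18.1 to 31.4). Whether reads of Mir301 and Mir301b were placed at the wrong gene or counted to neither was not tested. The members with the fewest bases between them were further apart in level than Mir130a and Mir130b, which lie on different chromosomes. The precursors of Mir130b and Mir301b, printed above, share no exact stretch of 18 bases with each other or with another annotated miRNA gene. Such a search misses the near match of Mir301b to miR-301a-3p, so it does not show that the Mir301b count is free of shared sequence. Bulk counts of a tissue cannot tell fewer cells that make a miRNA from less of it per cell.

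As a family, the 4 genes held 60216 counts in pup 1 and 66747 in pup 2, or 1.87% and 1.82% of the own-strand counts, a mean of 1.85% ± 0.034 (SD, n = 2). Its exact 95% binomial (Clopper-Pearson) interval ran from 1.86 to 1.89% in pup 1 and from 1.81 to 1.84% in pup 2. Of all reads, including those counted to no gene, the family held 0.946% and 0.925%. Mir130a gave 81.9% of the family's counts in pup 1 and 81.5% in pup 2, a mean of 81.7% ± 0.26. Mir130b gave 10.3% and 9.17%, Mir301 7.48% and 8.94%, and Mir301b 0.330% and 0.345%. The intervals of the 2 pups did not overlap for Mir130b (10.03 to 10.5% against 8.95 to 9.39%) or Mir301 (7.27 to 7.70% against 8.72 to 9.16%), and overlapped for Mir130a and Mir301b. These intervals hold counting error only. By another measure, a binomial test on shares of the library total that also holds counting error only, 40.9% of the 413 genes tested differed between the pups. Overlap of intervals was not counted over other genes, so 2 of 4 is no result about the family.

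**Figure D2:**
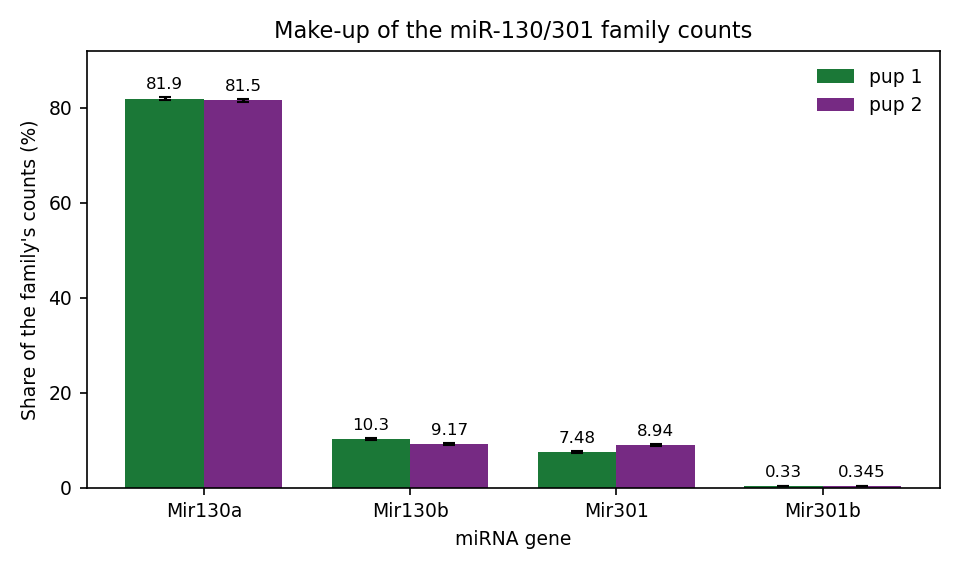
Share of the family's own-strand counts (%) held by each member, with 1 bar per pup and error bars for the exact 95% binomial interval. Mir130a holds 81.9% and 81.5%, and the shares of Mir130b and Mir301 are closer to each other in pup 2 than in pup 1.

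A further 4 mouse genes of the RefSeq table make a miRNA with the family seed, shown because they bear on how complete the family is.
mmu-miR-6341: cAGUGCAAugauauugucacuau
mmu-miR-6389: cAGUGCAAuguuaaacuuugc
mmu-miR-130c: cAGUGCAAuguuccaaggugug
mmu-miR-721: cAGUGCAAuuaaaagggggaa
In all, 7 of 1738 listed mature miRNAs (0.403%) have the seed AGUGCAA, 3 of them from the members. Mir6341, Mir6389 and Mir130c had 0 counts in both pups, which allows up to 0.933 CPM (pup 1) and 0.820 CPM (pup 2). Mir721 was not analysed here. Among the measured genes of this seed, every own-strand count therefore fell on the 4 members. The counts of 0 and their limits hold for uniquely placed reads only, and Mir6389 shares a run of 17 bases with Mir130a.

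Families with a related seed were set beside it. The miR-148/miR-152 miRNAs hold 6 of the 7 seed letters, moved by 1 base. Of the miR-17 list, all genes but Mir18 hold AGUGC. These letters are in capitals in 1 example of each.
mmu-miR-148a-3p: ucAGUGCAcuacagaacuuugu
mmu-miR-17-5p: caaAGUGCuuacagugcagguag
The 3 miR-148/miR-152 genes together had 699 CPM in pup 1 and 889 CPM in pup 2, so the miR-130/miR-301 genes stood 26.8-fold and 20.5-fold above them. The highest of the 3, Mir148a, had 322 CPM and 496 CPM, above Mir301b and below the other 3 members in both pups. The 7 genes of the miR-17 list, known for driving cell division, together had 14642 CPM and 14275 CPM, and the miR-130/miR-301 genes stood 1.28-fold above them in each pup. In that list, 6 of 7 genes hold AGUGC within their first 8 bases. Mir18 does not, and its 1699 CPM and 1428 CPM are part of the sums and of the 1.28-fold ratio. The highest gene of the list was Mir17 at 4899 CPM and 5239 CPM. Whether the summed levels of these sets differ beyond the spread between pups was not tested.

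**Figure D3:**
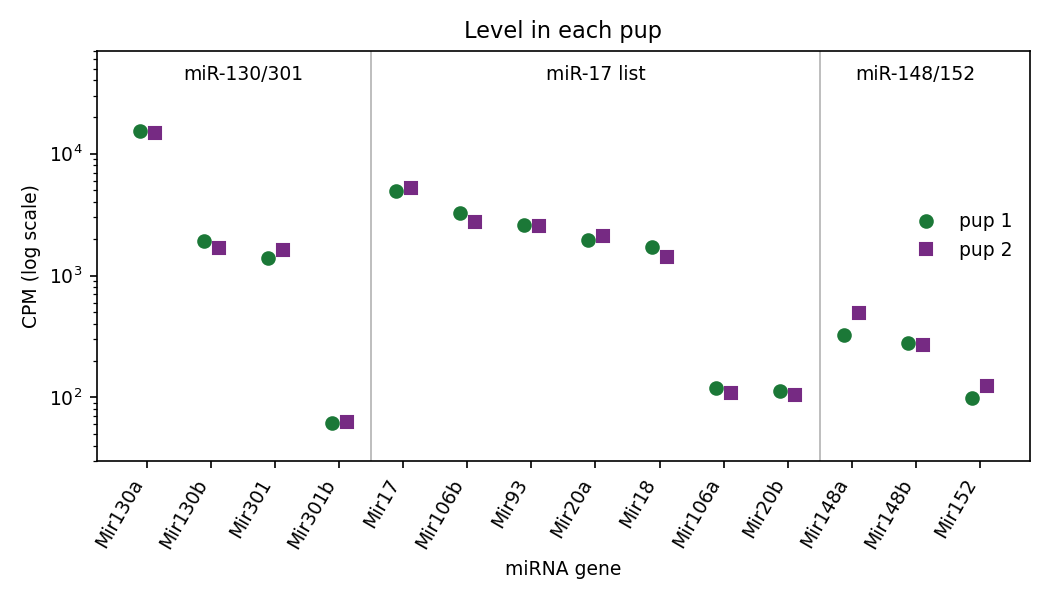
CPM (log scale) of each gene of the miR-130/miR-301 family, the miR-17 list and the miR-148/miR-152 list, with circles for pup 1 and squares for pup 2. In the miR-130/miR-301 family Mir130a at 15336 CPM and 14869 CPM stands far above the rest, and Mir301b at 61.9 CPM and 62.8 CPM is the lowest gene plotted.

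The genes next to the members in abundance give their levels a scale. Mir130a stood between Mir137, a miRNA of neurons, at 16076 CPM ± 1484 (SD, n = 2) and Mir26b at 13709 CPM ± 1346. Mir130b stood between Mir323 (1802 CPM ± 45.6) and Mir101b (1791 CPM ± 70.6), and Mir301 between Mir300 (1523 CPM ± 51.5) and Mir296 (1473 CPM ± 68.4). Mir301b stood between Mir1306 (62.6 CPM ± 2.43) and Mir670 (56.9 CPM ± 3.55). None of these 8 differences exceeded the pooled spread, so the exact rank of each member is not fixed by these data. Mir130a and Mir137 changed places between the pups, with Mir137 at 15026 CPM in pup 1 and 17125 CPM in pup 2.

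Differences between the pups were small for every member. The share of each gene was compared between the libraries by a two-sided exact binomial test on their totals, over all genes with at least 10 counts summed and with Benjamini-Hochberg adjustment over all of them. Only counting error enters this test, which sets 1 library against another. It called 169 of 413 genes (40.9%), 25.7% higher and 15.3% lower in pup 2. Of the members, 3 of 4 were called, 2 lower and 1 higher in pup 2; over 4 genes this count is no result about the family.

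Mir301 was higher in pup 2 by 16.3% (log2 ratio 0.22, SE 0.028, exact binomial adjusted p = 1.1e-13). Mir130b was lower, with a log2 ratio of -0.20 (SE 0.026, exact binomial adjusted p = 6.3e-14). Mir130a was also called lower, but by a log2 ratio of only -0.045 (SE 0.0090, exact binomial adjusted p = 3.1e-06), on the 49327 and 54432 counts given above; with TMM or DESeq2 scaling its ratio was -0.086. Mir301b had a log2 ratio of 0.022 (SE 0.14, exact binomial adjusted p = 0.93), and its sign changed with TMM or DESeq2 scaling (-0.019 and -0.020). The median log2 ratio of the 4 members was -0.011, beside 0.044 over the 413 genes tested.

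The log2 ratio of Mir130b minus that of Mir301 was -0.42, with an approximate 95% interval from counting error of -0.50 to -0.34. It lay within the limit of 0.645 that the pooled SD between pups sets for the difference of 2 such ratios, so Mir130b and Mir301 were not shown to differ in their ratios beyond the spread of genes of like abundance. For the neighbours Mir130b and Mir301b the difference was -0.22 with an interval of -0.50 to 0.055, so a difference was not detectable at the depth of Mir301b. All 4 members lay within 1.5-fold between the pups, as did 88.1% of the detected genes. The absolute log2 ratios of Mir301 and Mir130b were larger than those of 56.5% and 52.8% of the detected genes, that of Mir130a larger than 12.5% and that of Mir301b larger than 5.11%.

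The calls of the members rest on counting error alone. With the variation between libraries set at the common coefficient estimated from these same pups (14.4%), edgeR's exact test gave an adjusted p of 1 for each of the 4 members, and it called 0 of the 413 genes (0.0%), 27 of them having an unadjusted p below 0.05 and none of those being a member. Marker genes of several cell types also differed between the pups. By the binomial test, beside 25.7% of all genes higher and 15.3% lower in pup 2, the calls were 7 higher of 10 neuronal markers tested, 3 of 3 of sensory neurons, 4 of 5 of mesenchyme and vascular muscle, 2 of 3 of oligodendrocytes, 2 of 4 of blood and 1 of 2 of skeletal muscle, and 0 lower in these lists. Endothelial Mir126a (log2 ratio -0.10) and hepatocyte Mir122 (-0.70) were called lower. These calls too rest on counting error alone. The part of these markers in the ratios of the members was not tested.

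**Figure D4:**
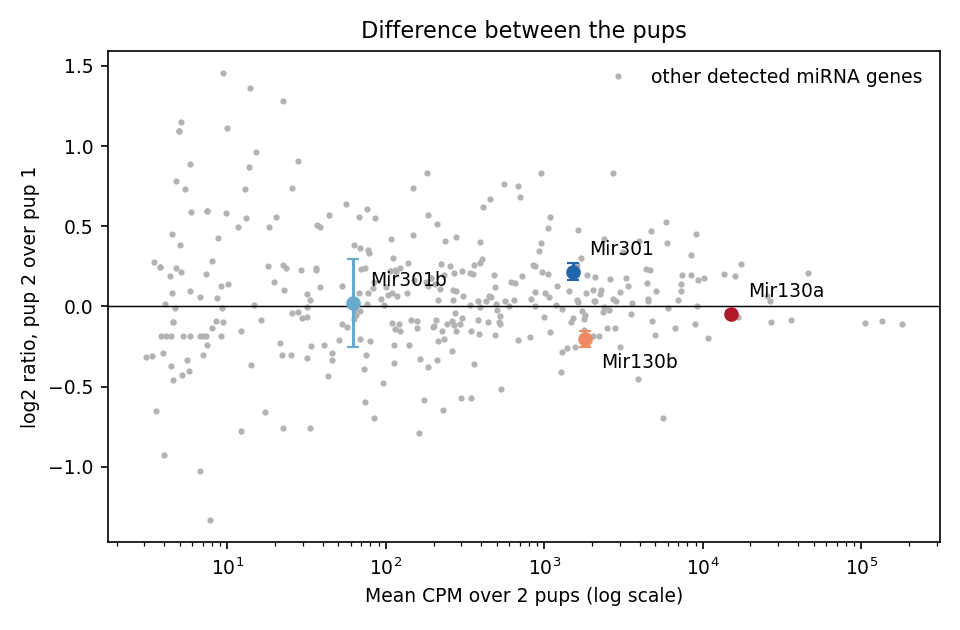
Log2 ratio of pup 2 over pup 1 against mean CPM (log scale) for the 352 detected genes, with grey points for other genes and coloured points for the members, whose bars are 95% intervals from counting error. Mir301 (0.22) and Mir130b (-0.20) lie on opposite sides of 0, Mir130a (-0.045) just below it and Mir301b (0.022) on it, all within the cloud of other genes.

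Reads on the opposite strand did not add to these levels. Mir130a had 2 opposite-strand counts in pup 2 and 0 in pup 1. No opposite-strand count was found for Mir130b, Mir301 or Mir301b in either pup. This is at or under the limit of 3 counts that a count of 0 allows.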

How the data were processed

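Small RNA libraries were sequenced from single neural tubes of 2 pups. Raw counts for each miRNA gene were deposited by the authors in 3 versions (either strand, own strand, opposite strand). The build mm10 and annotation GENCODE M4 are stated in the text that accompanies them. An aligner or counter is not given in the sources used. Read classes that name no gene stayed out of the totals; unmapped reads were 10.8% and 11.0% and reads outside miRNA genes 1.89% and 1.69%. Own-strand counts were used and scaled to the own-strand total. Symbols and positions came from GENCODE M21 (same build), which matched 1894 of 1973 identifiers, and sequences from RefSeq.

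The members, lists and tests were chosen with earlier results of these data known. Genes were named by a rule: the members, other genes of the same seed, the nearest gene above and below each member in mean CPM, miRNA genes within 10 kb, and the miR-148/miR-152 and miR-17 lists, with marker lists for the tissue check. Log2 ratios had 0.5 added to each count, and a call needed an adjusted p below 0.05. The SD between pups was pooled within 4 classes of abundance. The binomial test was tested on simulated data. Both pups share 1 dam, and the p-values compare these 2 libraries only. Those of the binomial test hold counting error and no spread between pups. Those of edgeR's exact test add a dispersion estimated from the same 2 pups. Alternatives were scaling by TMM or DESeq2, other pseudocounts and count minimums, either-strand counts, other pooling of the SD, edgeR's exact test, leaving out each pup or the most abundant gene, and shorter shared stretches. Statistics ran in Python 3.11.15 with scipy 1.17.1, scaling and the edgeR test in R 4.3.3 with DESeq2 1.42.0 and edgeR 4.0.16.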

Additional observations from a re-analysis of the deposited data

How the results depend on the processing

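Of 91 values recomputed under the alternatives, 77 were taken as the same and 14 were not. For levels, shares and pairs with 1 pup left out, the same meant a move of less than 1 SD. Ratios and the other pairs had to keep their sign and call. Numbers of genes had to stay within 1.5-fold, and numbers of shared stretches had to be equal. The 77 include the levels, family shares and differences between members with 1 pup left out. By construction, those values could not move by 1 SD. Leaving Mir10b, the most abundant gene, out of the total raised the levels to 18436 CPM (Mir130a), 2195 CPM (Mir130b), 1848 CPM (Mir301) and 76.1 CPM (Mir301b) and the family share to 2.26%, because the total is smaller. Counted on either strand, Mir301b stood at 61.0 CPM and the family share at 1.81%, because that total is larger. The log2 ratio of Mir301b, which was not called, became -0.019 with TMM and -0.020 with DESeq2 scaling, since each scaling moved all ratios by about the same small step; that of Mir130a became -0.086 with either and was still called. With edgeR's exact test at the common dispersion the ratios of Mir130a (-0.045), Mir130b (-0.20) and Mir301 (0.22) were no longer called, and 0 of 413 genes were, beside 27 at an unadjusted p below 0.05; that dispersion comes from the same 2 pups. With at least 1 count in both pups 553 genes were detected, by construction of the looser minimum. Leaving out each pup gave 14869 to 15336 CPM for Mir130a, 1672 to 1923 CPM for Mir130b, 1401 to 1629 CPM for Mir301 and 61.9 to 62.8 CPM for Mir301b; with 2 pups such a value cannot move by more than the SD and shows no stability. The order of levels Mir130a, Mir130b, Mir301, Mir301b and the 5 pairs that differed were kept under the other pseudocount, the SD pooled over all detected genes and either-strand counts. No paired analysis was possible because there was 1 group only. Depth limits Mir301b, whose 199 and 230 counts leave wide intervals.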
